A study of Mus musculus with 41 samples.

Results

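The cytosolic chaperonin CCT, also called TRiC, was described through the genes of its 8 subunits, Tcp1, Cct2, Cct3, Cct4, Cct5, Cct6a, Cct7 and Cct8. Members were all probe sets that the platform annotation gives exactly one of these symbols, 25 of the 45037 probe sets other than array controls, for 8 of 18193 genes with a symbol of their own. Of the 25, 22 passed a filter on brightness and were tested. Hippocampal RNA of 41 male C57BL/6J mice had been measured on 1 Affymetrix mouse expression array per mouse. The labels class 5 mice as high, 12 as medium and 8 as low in cognition, each placed in the same class by both ranking systems of the study. A further 14 mice were ranked inconsistently, and 2 had incomplete behavioural data. No group carried a genotype or a treatment of its own. All mice went through the same battery of behavioural tests, which began at an age of 10 weeks. Fear conditioning came in week 33, passive avoidance followed in weeks 37 to 38, and hippocampal RNA was obtained 1 month later. The class of a mouse therefore rests on its behaviour alone. Inconsistent replicate 2 also carries a description as consistently medium and was kept as inconsistent.

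CCT is a barrel of stacked rings in which each subunit has a fixed place. It encloses newly made proteins and folds them with the energy of ATP. Actin and tubulin are its best known clients, and proteins with WD40 propeller domains, such as G protein beta subunits, are others. Prefoldin hands it unfolded actin and tubulin, and phosducin-like proteins work with it as cofactors. In yeast, the side of the ring that holds the counterparts of Tcp1, Cct2, Cct4 and Cct5 binds ATP more tightly than the side that holds those of Cct3, Cct6a, Cct7 and Cct8. In the hippocampus, as elsewhere, neurons build axons and dendrites on actin filaments and microtubules.

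Levels are log2 of the quantile-normalised intensity plus an offset of 16, and differences are on this scale, so that changes of dim probe sets are understated. Levels of different probe sets were not set against each other. A probe set was called when its limma p-value, adjusted by Benjamini-Hochberg over all 22519 tested probe sets, was under 0.05. Array median intensities ran from 22.4 to 55 before normalisation, and the number of arrays limits the precision. Hippocampal markers were present, with mean levels of 4 dentate granule cell markers from 9.01 to 9.06 in high, 6.76 to 9.14 in medium and 8.61 to 9.22 in low mice. Medium replicate 9 held the lowest of these and stood apart from the other arrays, whose pairwise correlations had a median of 0.986 over all 41. It was kept in the medium group. Summed intensities of 5 striatal markers reached 2298 in medium mice, against 638 in high, 736 in low and 715 in inconsistent mice. Their medians were alike, at 643 in medium, 583 in high, 638 in low and 631 in inconsistent mice. Sums of 4 neocortical markers reached 1785 in medium mice, against 884, 962 and 931, with medians of 830 against 831, 862 and 797. No batch is named in the labels. By the control probe sets for spiked-in RNA, the arrays fell into clusters of 8, 10 and 23, which held 0, 1 and 4 high, 2, 5 and 5 medium and 2, 2 and 4 low arrays. In bulk tissue, fewer cells of a type and less RNA per cell cannot be told apart.

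The promoters of 4 members are shown. At the brightest probe sets, the levels of Tcp1 and Cct2 went together most closely of all subunit pairs. Cct8 holds the same motif, and Cct5 had the highest difference between high and low mice of the brightest probe sets. Sequences are from RefSeq on build GRCm38.p6, from 100 bases before to 10 bases after the outermost annotated start, on the strand of the gene. Capitals mark CCGGAAG, an ETS-type motif, or its reverse complement, and in Cct5 the motif TTCNNGAA, which joins repeated units of a heat shock element. The stretches lie at chr17:12916229-12916338 on the + strand (Tcp1), chr10:117063843-117063952 on the - strand (Cct2), chr16:87495860-87495969 on the - strand (Cct8) and chr15:31601837-31601946 on the - strand (Cct5).
Tcp1: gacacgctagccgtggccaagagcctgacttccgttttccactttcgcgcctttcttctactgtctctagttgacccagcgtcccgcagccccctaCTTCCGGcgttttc
Cct2: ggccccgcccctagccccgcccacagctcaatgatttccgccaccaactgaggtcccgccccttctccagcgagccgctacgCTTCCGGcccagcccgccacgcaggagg
Cct8: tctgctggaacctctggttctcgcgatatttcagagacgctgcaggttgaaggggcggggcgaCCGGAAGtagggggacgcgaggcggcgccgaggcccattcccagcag
Cct5: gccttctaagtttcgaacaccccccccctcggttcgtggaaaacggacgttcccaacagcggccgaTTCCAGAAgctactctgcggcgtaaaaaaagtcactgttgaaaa

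RefSeq windows of 300 bases, from 250 before to 50 after a start, matched 7 of the 8 genes, all but Cct4, with 9 windows. Both strands were searched, and matches of different motifs may overlap. CCGGAAG lay in 3 of the 9 windows, those of Tcp1, Cct2 and Cct8, against 8.86% of all 32851 windows. Its first base stood at -4 in Tcp1, -18 in Cct2 and -37 in Cct8. TTCNNGAA lay at -34 from the outermost start of Cct5, but not in the window of its further start. It also lay downstream of the start in Cct6a, against 8.52% of all windows. Its mirror arrangement GAANNTTC lay in 1 window, a further start of Cct2, against 7.86%. The Sp1-type motif GGGCGG was held by 8 of the 9 windows, and by all 7 genes, against 35.7% of all windows. CCAAT lay in 4 windows, against 37.4%, and the NRF1 palindrome in 1, that of Cct5, against 0.971%. The YY1 motif, in 0.633% of all windows, and CACGTG, in 7.15%, were found in 0 of the 9. These matches describe letters and not bound sites.

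High mice were set against low mice to ask whether subunit mRNAs differ between the ends of the cognitive ranking. The 8 genes, each at its brightest probe set, had small differences with a median of 0.06, from -0.03 for Cct8 to 0.12 for Cct5, and 7 of 8 were above 0. Over all tested probe sets the median was 0.0051, and 52.1% were above 0. Limma called 0 of the 22 CCT probe sets, where the background was 0.00888% of all tested. At an unadjusted p under 0.05 there were 7 of the 22, of which 6 were higher and 1 lower, against 8.16% of all tested, 4.58% higher and 3.57% lower. Probe sets of the same gene, such as those of Cct4, are counted separately here. With each gene at its brightest probe set it was 3 of 8, against 958 of all 11218 genes. In 0 of the 22 did high and low arrays separate without overlap, against 0.502% of all tested. The smallest adjusted p among the 22 was 0.549.

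Against medium mice the picture was similar, but both comparisons use the same high arrays and are not independent. All 8 brightest probe sets had differences above 0, against 51.9% of all tested, with a median of 0.06 and a range from 0.01 for Cct8 to 0.13 for Cct5. Limma called 0 of 22, against 0.0311% of all tested. At an unadjusted p under 0.05 there were 8, of which 7 were higher, against 13.2% of all tested and 7.3% higher, and 1 was lower, against 5.9%. Several of the 7 were probe sets of Cct4. With each gene at its brightest probe set it was 2 of 8, against 1501 of all 11218 genes. The smallest adjusted p was 0.185. High and medium arrays overlapped in every CCT probe set, against 0.395% of all tested that did not.

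**Figure D1:**
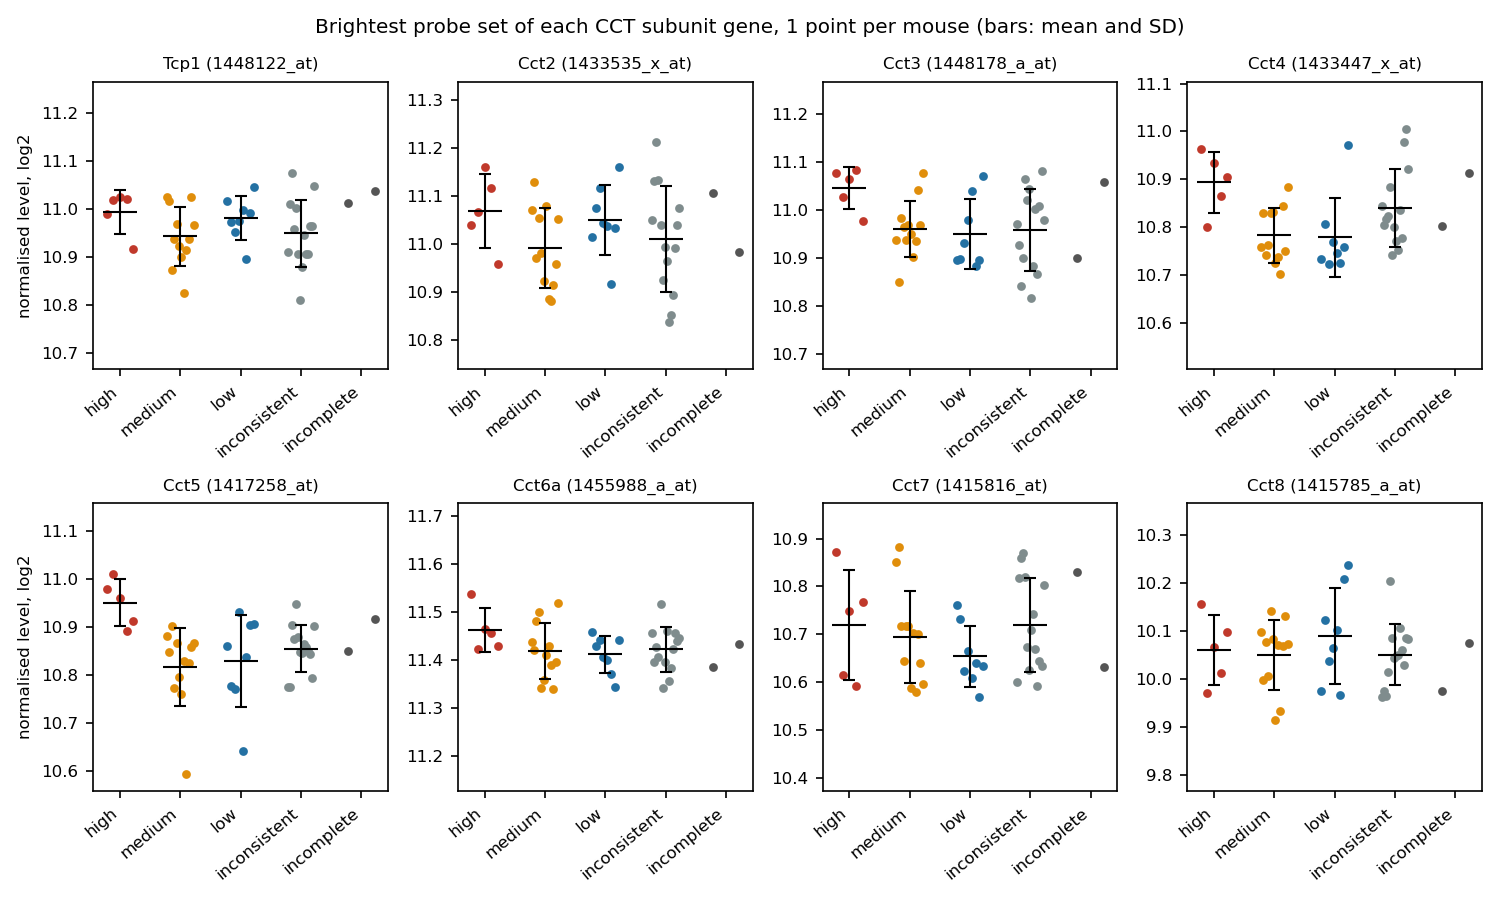
Normalised level on the log2 scale (y axis) of the brightest probe set of each of the 8 CCT genes in every mouse, by group (x axis). Each point is 1 mouse, bars are mean and SD of groups over 2 mice, and every panel spans the same height. High points overlap those of the other groups in all 8 panels. For Cct3, Cct4 and Cct5 most of them lie in the upper part of the spread. In the Cct4 panel 1 low and 2 inconsistent points lie above every high point.

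Among the subunits on the tightly ATP-binding side, Tcp1 encodes the alpha subunit, after which the complex was first named. Its probe set 1448122_at stood at 10.99, 11.02, 11.03, 11.02 and 10.92 in the high mice. Medium mice ran from 10.83 through a median of 10.94 to 11.03, low mice from 10.90 through 10.98 to 11.05, and inconsistent mice from 10.81 through 10.95 to 11.08. High replicate 5 lay below most low arrays, and the groups overlapped over nearly their whole range. The difference of high from low mice was 0.01 ± 0.04 (SE, limma adjusted p = 0.963), with a 95% interval from -0.08 to 0.10, and that of high from medium mice 0.05 ± 0.04 (limma adjusted p = 0.610).

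Cct2, the beta subunit, was read by 3 tested probe sets. The brightest, 1433535_x_at, stood at 11.04, 11.07, 11.16, 11.12 and 10.96 in high mice. It ran from 10.88 through a median of 10.98 to 11.13 in medium, from 10.92 through 11.04 to 11.16 in low and from 10.84 through 11.02 to 11.21 in inconsistent mice. High replicate 5 was again the lowest of its group, and 7 of the 8 low arrays lay above it. The differences were 0.02 ± 0.05 from low (limma adjusted p = 0.954) and 0.08 ± 0.05 from medium mice (limma adjusted p = 0.518). The suffix _x_at marks probes that can bind other transcripts, so this value is uncertain.
A second Cct2 probe set, 1416037_a_at, had high levels of 10.85, 10.86, 10.89, 10.84 and 10.83, the least scattered high group among the probe sets described, at an SD of 0.02. Medium mice averaged 10.74 ± 0.09 (SD, n = 12) and low mice 10.75 ± 0.07 (SD, n = 8). It was 0.11 higher than in low and 0.12 higher than in medium mice, with limma adjusted p-values of 0.608 and 0.310, so neither passed. The remaining probe set, 1433534_a_at, differed by -0.02 and -0.08 from low and medium mice, and the readings of this gene thus did not share a direction.

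Cct4, the delta subunit, is mutated in the rat strain mutilated-foot, which loses sensory neurons. Its brightest probe set, 1433447_x_at, stood at 10.96, 10.80, 10.93, 10.87 and 10.91 in high mice. Medium mice ran from 10.70 through a median of 10.76 to 10.88, low mice from 10.72 through 10.75 to 10.97 and inconsistent mice from 10.74 through 10.82 to 11.01. Apart from low replicate 8, the highest array of both groups together, 1 of 8 low arrays reached the lowest high array. High mice averaged 10.89 ± 0.06 (SD, n = 5) and low mice 10.78 ± 0.08 (SD, n = 8), a difference of 0.11 ± 0.05 (SE) and a fold of 1.08 that did not pass, at a limma adjusted p of 0.569. From medium mice the difference was 0.11 ± 0.05 (limma adjusted p = 0.308).
The dimmer Cct4 probe set 1415868_at had the highest difference of all 22 in both comparisons. Its high levels were 6.23, 6.26, 6.12, 6.18 and 6.25, against 5.33 to 6.12 with a median of 5.93 in medium mice and 5.71 to 6.36 with a median of 5.88 in low mice. Only 1 medium array and 1 low array lay above the lowest high array. The difference was 0.29 ± 0.11 (SE) from low and 0.33 ± 0.10 from medium mice, folds of 1.22 and 1.26, with limma adjusted p-values of 0.549 and 0.185. With array quality weights the difference from medium mice was 0.29 at a limma adjusted p of 0.0432. This was 1 of 354 probe sets that this fit called, against 7 with equal weights.

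The other Cct4 probe sets differed less. From low mice, 1438560_x_at differed by 0.13, 1430034_at by 0.14, 1415867_at by 0.08, 1456082_x_at by -0.02 and 1456572_x_at by -0.0070, and none passed. Across the 41 arrays 6 of the 21 pairs of Cct4 probe sets correlated at an adjusted permutation p under 0.05, all 6 positively. The closest were 1433447_x_at and 1438560_x_at, with a Pearson r of 0.66. Probe sets assigned to the gene thus did not all follow the same pattern over mice.

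Cct5 encodes the epsilon subunit, and a change in human CCT5 underlies an inherited sensory neuropathy. Its single probe set, 1417258_at, stood at 10.98, 11.01, 10.96, 10.89 and 10.91 in high mice. The groups of medium, low and inconsistent mice ran from 10.59 through a median of 10.84 to 10.90, from 10.64 through 10.85 to 10.93 and from 10.77 through 10.85 to 10.95. The 3 highest arrays of the high group lay above all arrays of these groups, and 1 medium, 3 low and 3 inconsistent arrays lay above the lowest high array. High mice averaged 10.95 ± 0.05 (SD, n = 5) and low mice 10.83 ± 0.10 (SD, n = 8). The difference from low mice was 0.12 ± 0.05 (SE), a fold of 1.09, with a 95% interval from 0.01 to 0.23 and a limma adjusted p of 0.581. From medium mice it was 0.13 ± 0.05, a fold of 1.10, at a limma adjusted p of 0.267, and neither passed. Medium replicate 9 held the lowest Cct5 level of all, and without it the difference from medium mice was 0.11.

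On the other side of the ring, Cct3 is the gamma subunit. Its brightest probe set, 1448178_a_at, stood at 11.08, 11.03, 11.06, 11.08 and 10.98 in high mice. It ran from 10.85 through a median of 10.96 to 11.08 in medium, 10.88 through 10.91 to 11.07 in low and 10.82 through 10.97 to 11.08 in inconsistent mice. All 5 high arrays lay above the mean of the medium, low and inconsistent groups. Above the lowest high array lay 3 low, 3 medium and 7 of the 14 inconsistent arrays. The differences were 0.10 ± 0.05 from low (limma adjusted p = 0.608) and 0.09 ± 0.04 from medium mice (limma adjusted p = 0.394).
Of the dimmer Cct3 probe sets, 1426067_x_at went the opposite way. Its levels were 6.40, 5.66, 5.87, 5.85 and 6.33 in high mice, against 6.09 to 6.59 with a median of 6.40 in medium and 5.80 to 6.71 with a median of 6.49 in low mice. High replicates 2, 3 and 4 were low, and replicates 1 and 5 lay among the other groups. The difference was -0.34 ± 0.14 (SE) from low and -0.33 ± 0.13 from medium mice, with limma adjusted p-values of 0.554 and 0.281.
By contrast 1449645_s_at had high levels of 9.36, 9.42, 9.53, 9.49 and 9.52. Medium mice ran from 8.86 to 9.42 and low mice from 9.22 to 9.46. All 5 high arrays lay above the mean of either group. The difference was 0.14 ± 0.08 from low and 0.21 ± 0.07 from medium mice, with limma adjusted p-values of 0.655 and 0.199. With array quality weights the difference from medium mice was 0.22 at a limma adjusted p of 0.0464, in the fit that called 354 probe sets. With equal weights and the spike-in cluster as a block it was 0.15 (limma adjusted p = 0.277). The probe sets 1459987_s_at and 1416024_x_at differed by 0.10 and 0.02 from low mice.

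**Figure D2:**
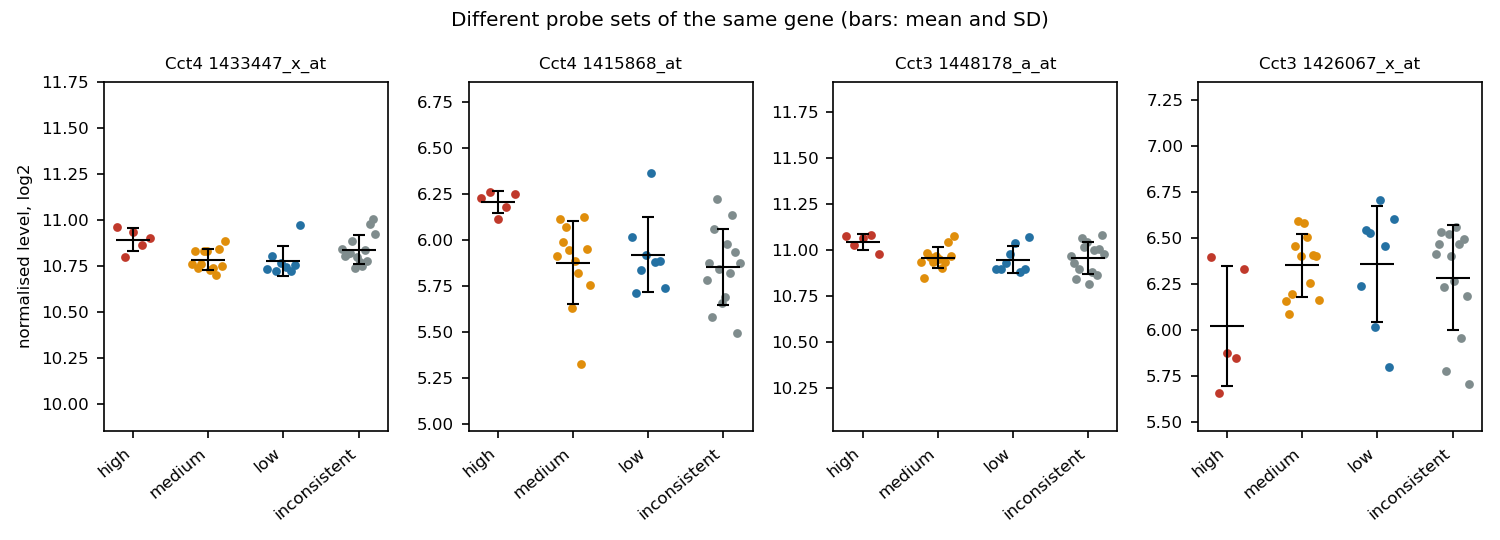
Normalised level on the log2 scale (y axis, equal heights) of a bright and a dim probe set of Cct4 and of Cct3 in every mouse, by group (x axis), with mean and SD. The Cct4 probe set 1415868_at lies at 6.12 to 6.26 in high mice. Above the lowest of these points lie 1 medium, 1 low and 2 inconsistent points. The Cct3 probe set 1426067_x_at reaches down to 5.66 in high mice.

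Cct6a, the zeta subunit, has a testis-expressed copy, Cct6b, whose own probe set did not pass the brightness filter. The probe set 1455988_a_at stood at 11.54, 11.42, 11.46, 11.46 and 11.43 in high mice. Medium, low and inconsistent mice each began at 11.34 and had a median of 11.42, with highest levels of 11.52, 11.46 and 11.52. High replicate 1 was the highest of all arrays, and the other 4 lay inside the ranges of medium and inconsistent mice. Of these, replicate 3 lay slightly above the highest low array. The differences were 0.05 ± 0.04 from low (limma adjusted p = 0.798) and 0.04 ± 0.04 from medium mice (limma adjusted p = 0.668). The second probe set, 1423517_at, differed by 0.05 in both comparisons.

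Cct7, the eta subunit, was the most scattered gene at its brightest probe set. Levels of 1415816_at were 10.87, 10.62, 10.75, 10.59 and 10.77 in high mice. Medium mice ran from 10.58 through a median of 10.70 to 10.88, low mice from 10.57 through 10.64 to 10.76 and inconsistent mice from 10.59 through 10.69 to 10.87. High replicates 2 and 4 lay near the bottom of every group and replicate 1 near the top. The differences were 0.06 ± 0.06 from low (limma adjusted p = 0.811) and 0.02 ± 0.05 from medium mice (limma adjusted p = 0.880). The other probe set, 1415817_s_at, differed by 0.06 and 0.12.

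Cct8, the theta subunit, was the single gene with a difference below 0 from low mice. Levels of 1415785_a_at were 10.16, 9.97, 10.07, 10.01 and 10.10 in high mice. They ran from 9.91 through a median of 10.07 to 10.14 in medium, 9.97 through 10.08 to 10.24 in low and 9.96 through 10.05 to 10.21 in inconsistent mice. Low arrays held both the highest levels and some of the lowest. The differences were -0.03 ± 0.05 from low (limma adjusted p = 0.930) and 0.01 ± 0.05 from medium mice (limma adjusted p = 0.944). With arrays only centred on their medians the difference from low mice was 0.0070, where the median over all tested probe sets was 0.04. Its sign thus depended on how the arrays were scaled and was not settled. Without normalisation between arrays the median difference over all tested probe sets was -0.06 against low and -0.17 against medium mice.

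**Figure D3:**
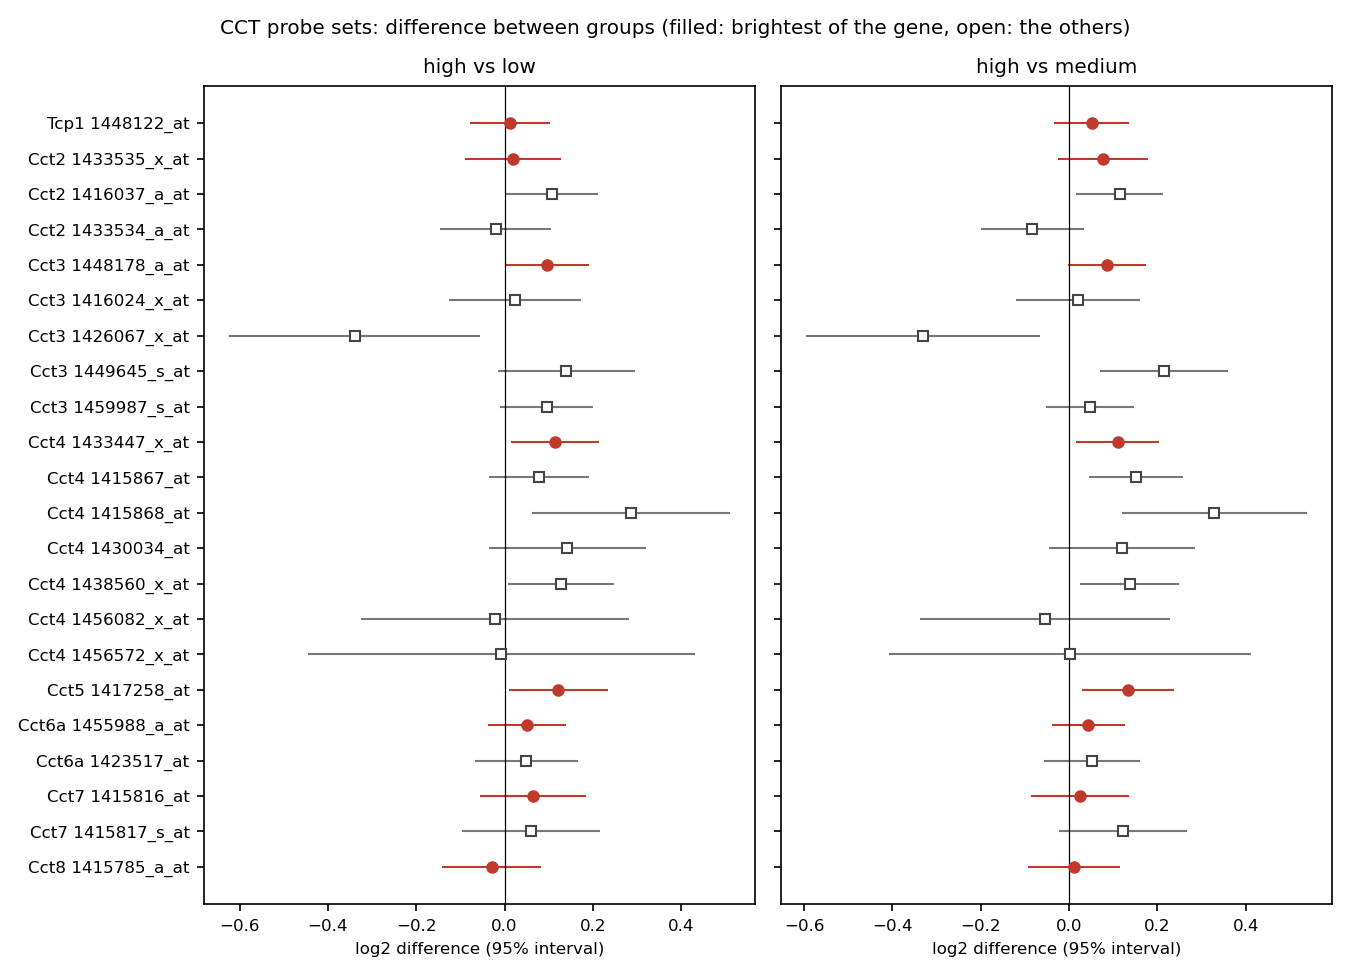
Log2 difference of high from low mice (left) and of high from medium mice (right) with its 95% interval from limma (x axis) for the 22 tested CCT probe sets (rows). Filled circles are the brightest probe set of each gene and open squares the others. Most differences lie between 0 and 0.2, with 1426067_x_at at -0.34 and 1415868_at at 0.29 in the comparison with low mice.

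Medium and low mice did not separate in these genes. Their 8 differences, medium minus low, ran from -0.06 for Cct2 to 0.04 for Cct7 with a median of -0.0038, and 4 of 8 were above 0, against 49.9% of all tested. Limma called 0 of 22 and 0 had an unadjusted p under 0.05, against 0 called of all tested (0%) and 3.1% at an unadjusted p under 0.05. The 95% intervals of the 8 genes lay between -0.15 and 0.14. A moderated F test for any difference among the 3 classes called 0 of 22, against 0.00888% of all tested, with 7 at an unadjusted p under 0.05, against 8.61%. A trend over the ordered classes, by limma, called 0, against 0.00444%, with 3 at an unadjusted p under 0.05, against 5.93%.

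The inconsistent mice lay close to the medium and low mice. High mice differed from them by a median of 0.05 over the 8 genes, from 0.00037 for Cct7 to 0.10 for Cct5, and 8 of 8 were above 0, against 52.1% of all tested. Limma called 0 of 22 in this comparison, against 0.00444% of all tested, and in 0 of 22 did the groups not overlap, against 0.133%. At an unadjusted p under 0.05 there were 5, against 10.9% of all tested. All 5 were higher, against 6.07%, and 0 lower, against 4.83%. With each gene at its brightest probe set it was 2 of 8 at an unadjusted p under 0.05, against 1268 of all 11218 genes. The Cct4 probe set 1415868_at differed most, by 0.35 ± 0.10 (SE) with a limma adjusted p of 0.211. With array quality weights it differed by 0.34 at a limma adjusted p of 0.0393, in a fit that called 146 of all probe sets, against 1 with equal weights. Medium and low mice differed from inconsistent mice by medians of -0.01 and -0.0093, with 0 of 22 called by limma in either (0% of all tested) and 0 at an unadjusted p under 0.05, against 4.72% and 4.22%. The comparisons with the high group share its 5 arrays.

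Averaged over the 8 genes, each array's deviation from the mean of all arrays was small. It was 0.10, 0.02, 0.08, 0.03 and 0.02 in the high mice, all above 0. It ran from -0.11 through a median of -0.01 to 0.03 in medium, from -0.07 through -0.01 to 0.08 in low and from -0.05 through -0.01 to 0.08 in inconsistent mice. Medium replicate 9 was the lowest array and high replicate 1 the highest, and the groups overlapped.

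Choroid plexus epithelium lies beside the hippocampus, and its markers varied widely between arrays. The 9 marker genes, all 9 on the array, had summed intensities from 688 to 2543 in high, 632 to 14450 in medium, 541 to 13886 in low and 965 to 13181 in inconsistent mice. The groups overlapped at the low end. Arrays bright in these markers were 0 of 5 high, 4 of 12 medium, 3 of 8 low and 3 of 14 inconsistent, and this difference was not tested. Without those arrays the 8 CCT differences had medians of 0.05 from low mice, with 6 of 8 above 0, and 0.07 from medium mice, with 8 of 8. Within the spike-in cluster of 10 arrays the medians were 0.12 from low and 0.14 from medium mice, resting on 1 high array. Within the cluster of 23 arrays they were 0.04 and 0.06, with 7 of 8 above 0 in both, and the cluster of 8 held 0 high arrays. With the cluster as a block they were 0.07 and 0.07. With that block limma called 0 CCT probe sets against low or medium mice, where it called 2 and 5 of all tested. Without the choroid-bright arrays it called 0, where 0 and 0 of all tested were called. Within the cluster of 23 arrays it called 0, where 0 and 1 of all tested were called. The ratio of 3′ to 5′ Gapdh probe sets, a sign of RNA quality, averaged -0.46 in high, -0.48 in medium and -0.48 in low mice on the log2 scale. The same ratio for actin averaged 0.52 in high, 0.57 in medium and 0.53 in low mice. It reached 0.54, 0.83 and 0.60 in them, with medium arrays the most spread, and the 0.83 was that of medium replicate 9. The part of either ratio in the CCT differences was not tested.

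At their brightest probe sets the subunit mRNAs had small SDs between mice. Over the 41 arrays these ran from 0.05 for Cct6a to 0.09 for Cct7, with a median of 0.08. Over all 22 tested CCT probe sets the median SD was 0.0953. It was 0.17 over all tested probe sets and 0.10 over the 2453 with a mean level of 10 or more. Between 0.155% and 8.39% of all tested probe sets had a smaller SD than a given one of these 8. The highest array exceeded the lowest by a factor of 1.15 for Cct6a and 1.33 for Cct5, the ends of the range over the 8 genes. Dimmer CCT probe sets varied more, with Cct3 1426067_x_at at an SD of 0.28, above 93.2% of all tested, and Cct4 1456572_x_at at 0.34, above 97.0%. SDs are compared on the log2 scale, where dim probe sets scatter more.

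Whether subunits of the complex varied together was asked over the 41 arrays with permutation tests on the 28 pairs of genes. Of the 28, 26 had a Pearson r above 0, with a median of 0.30, and 2 passed after adjustment over the 28. Tcp1 and Cct2 had an r of 0.63 and a Spearman rho of 0.60, with adjusted permutation p-values of 0.00056 and 0.0014 and a raw permutation p of 2e-05 for r. Cct3 and Cct4 had an r of 0.59 and a rho of 0.56, with adjusted permutation p-values of 0.00084 and 0.0021. Without the 2 arrays farthest from the median on the x axis r was 0.64 and 0.62. In these pairs Cct2 and Cct4 were read by _x_at probe sets, whose probes can bind other transcripts. That of Cct2 had an r of 0.33 and -0.01 with the other 2 probe sets of the gene, and neither passed. Both pairs are thus relations of these probe sets, and other probe sets of Cct2 and Cct4 may differ. By Spearman's rho Tcp1 and Cct5 passed as well (0.47, adjusted permutation p = 0.019), while their Pearson r of 0.31 did not (adjusted permutation p = 0.098). The lowest was that of Cct3 and Cct7, at -0.28 (adjusted permutation p = 0.139). Cct8, whose promoter shares CCGGAAG with those of Tcp1 and Cct2, had an r of 0.15 with Tcp1 and -0.10 with Cct2.

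These relations depended on how arrays were brought to a common scale and on the spike-in clusters. Without normalisation between arrays, and with arrays only centred on their medians, all 28 pairs passed, with median r of 0.96 and 0.73. For Tcp1 and Cct2, r was 0.37, 0.38 and 0.61 within the clusters of 8, 10 and 23 arrays, of which the last passed. For Cct3 and Cct4 it was -0.62, 0.76 and 0.70, so the sign turned in the cluster of 8, where it did not pass, and the others passed. Cct3 and Cct7 also differed in sign between clusters, at -0.85, 0.84 and -0.20. With group means removed, r was 0.61 and 0.53.

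**Figure D4:**
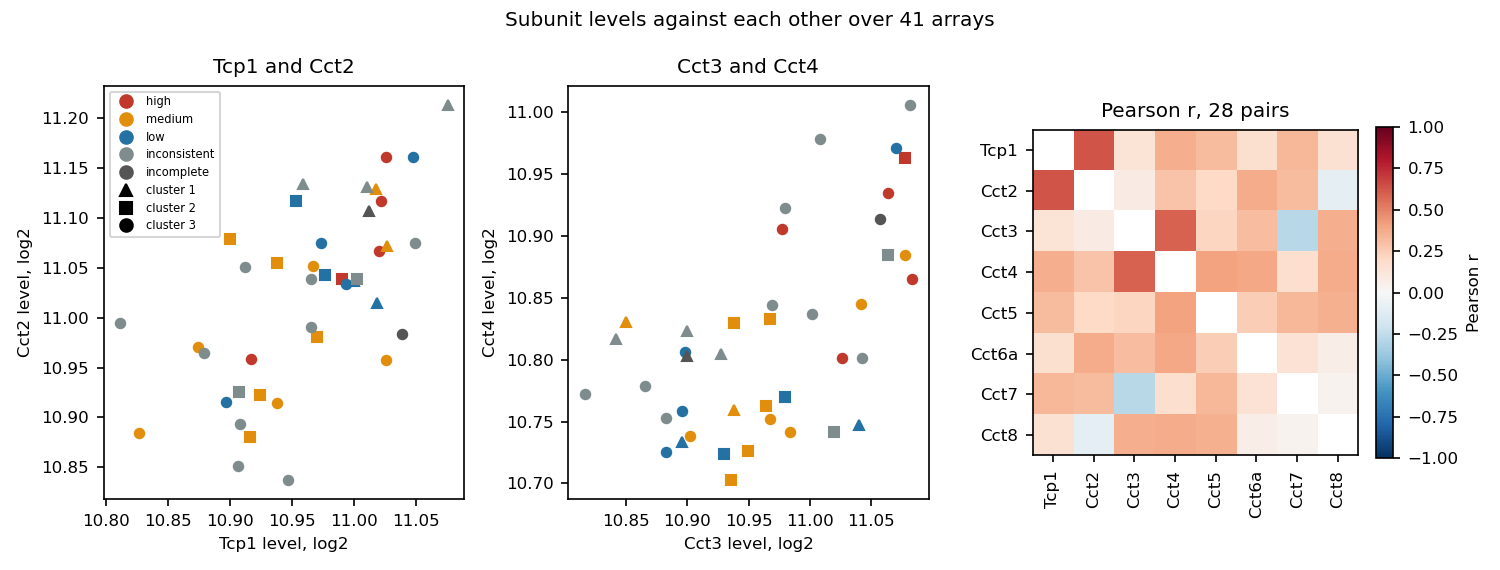
Level of Cct2 against Tcp1 (left) and of Cct4 against Cct3 (middle), both on the log2 scale, with 1 point per mouse, colour for the group and shape for the spike-in cluster of 8 (1), 10 (2) or 23 (3) arrays. The right panel shows Pearson r of the 28 subunit pairs over 41 arrays, from -0.28 for Cct3 and Cct7 to 0.63 for Tcp1 and Cct2.

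Probe sets of the same gene often did not follow each other over the mice either. Of 36 pairs of tested probe sets within a gene, 11 correlated at an adjusted permutation p under 0.05, all positively. They were 5 of 10 pairs for Cct3 and 6 of 21 for Cct4. The 3 Cct2 pairs, the pair of Cct6a (r = -0.10) and the pair of Cct7 (r = -0.31) did not pass.

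The genes whose brightest probe set followed the mean standardised level of the 8 subunits most closely over the 41 arrays, of 11210 ranked, were Hnrnpc (r = 0.83), an RNA-binding splicing factor, Chordc1 (0.81), an Hsp90 co-chaperone, Hspe1 (0.80), the lid of the mitochondrial chaperonin, Ahsa2 (0.79), a relative of an Hsp90 activator, and Pdia6 (0.79), a disulfide isomerase of the endoplasmic reticulum. With group means removed these values were 0.79, 0.76, 0.76, 0.74 and 0.73. At the other end stood Zscan26 (-0.76), a zinc finger gene, Aifm3 (-0.75), Clcn2 (-0.74), a chloride channel, Zfr2 (-0.74) and Fndc10 (-0.73). These are descriptions over arrays that share their normalisation, and no test was made.

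Genes that work with CCT were followed at their brightest tested probe set, and limma called 0 of them in any comparison. Over all 11218 genes 51.5% had a difference of high from low mice above 0, with a median of 0.0037. All 6 prefoldin subunits were above 0, with a median of 0.07. Pfdn4 differed most, at a mean of 9.19 in the 5 high and 9.02 in the 8 low mice, a difference of 0.17 ± 0.08 (SE) at a limma adjusted p of 0.601. Pfdn2 differed by 0.14 (limma adjusted p = 0.553). Against medium mice, 5 of 6 prefoldin genes were above 0, with a median of 0.09, Pfdn2 highest at 0.18 (limma adjusted p = 0.169). Of the cofactors that act with CCT, 0 of 3 tested were above 0, and Pdcl3, a phosducin-like protein, was lowest at -0.05. The chaperonin-like relatives had 1 of 3 above 0, with Mkks, a Bardet-Biedl syndrome protein, at -0.14.

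Client genes and later folding steps showed no common direction. Of the cofactors that assemble tubulin dimers 3 of 6 were above 0, with Tbcd at -0.14 ± 0.09 (SE). Actin and tubulin genes were above 0 in 6 of 13, with a median of -0.0029. Tubb4a, a tubulin abundant in myelin-forming cells and neurons, was at -0.23 ± 0.10 (SE) with a limma adjusted p of 0.585, and Actb, cytoplasmic beta actin, at -0.0029. WD40 clients were above 0 in 4 of 8, with Strn, a scaffold of a phosphatase complex, at 0.12. Tubulin probe sets can bind more than one of these closely alike transcripts.

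Other chaperones were followed in the same way. Of 8 tested heat shock and cytosolic chaperone genes 7 were above 0 in high against low mice, with a median of 0.20, and Hspa1b, an inducible HSP70, was highest at 0.70 ± 0.22 (SE, limma adjusted p = 0.490), though probes may not tell it from its near-identical copy Hspa1a. Hspe1 of the mitochondrial chaperonin was at 0.16 ± 0.06 (SE, limma adjusted p = 0.553), and its partner Hspd1 at 0.02. Hspe1 averaged 10.70 ± 0.10 in the 5 high and 10.43 ± 0.09 in the 12 medium mice (SD), a difference of 0.27 at a limma adjusted p of 0.0985.

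**Figure D5:**
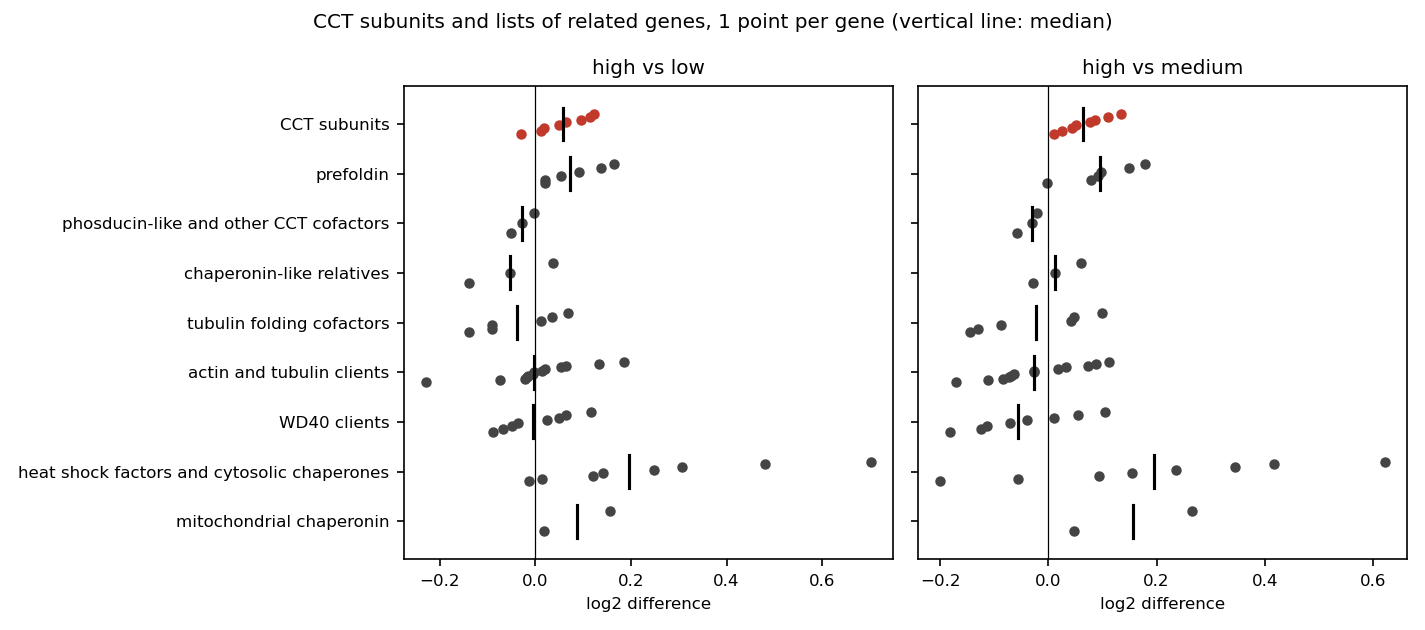
Log2 difference of high from low (left) and of high from medium mice (right) on the x axis for the 8 CCT genes and the members of 8 related lists (rows), with 1 point per gene at its brightest tested probe set and a vertical line at the median. CCT and prefoldin genes lie close together slightly above 0, clients scatter around 0, and Hspa1b stands at 0.70 against low mice.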

How the data were processed

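The deposited table holds 1 value per probe set for 41 arrays. By their range, from 0.0112 to 13549, and by their medians, the deposited values are linear intensities that were neither log-transformed nor brought to a common distribution. Partek and RMA appear in the submitters' processing notes, without versions. How these deposited values were made is not given there. The planned test assumed log2 values, so intensities were quantile-normalised over 41 arrays, and log2(intensity + 16) was taken. In the platform annotation 34945 probe sets have 1 gene symbol, 932 several and 9160 none. Those with several were not named. Of 45037 probe sets other than 64 controls, the brighter 22519 by their mean were tested, which left out 3 of the 25 CCT probe sets.

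Limma 3.58.1 in R 4.3.3 fitted the 25 high, medium and low arrays together with 1 mean per group, and 39 arrays where inconsistent mice were compared. Correlations used 100000 permutations in Python 3.11.15 with numpy 2.4.6, two-sided, and Benjamini-Hochberg adjustment. Each array is 1 mouse, and p-values measure the spread between mice.

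The members, the gene lists and the tests were chosen with earlier results of these data known. Named were all members, from each list the gene with the highest absolute difference of high from low mice and up to 5 genes in all, and the 5 genes most and least alike to the subunit mean. The steps were tested on simulated data. Alternatives covered the filter, the normalisation, the offset, the variance model, array weights, the arrays in the fit, spike-in clusters, a block on replicate numbers, and fits that each omit 1 array.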

Additional observations from a re-analysis of the deposited data

Results flagged for a closer look

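Among the 44 groups of 5 high or 8 low arrays screened over the 22 tested CCT probe sets, 3 held an array far from the others. Chance gives about 1 in 20, so this count is close to that share. The groups also reuse the same arrays. Cct4 probe set 1433447_x_at stood at 10.97 in low replicate 8, and the nearest low array at 10.81. Without it the difference of high from low mice was 0.14, against 0.11 with it. Cct4 probe set 1415868_at stood at 6.36 in low replicate 5, and the nearest low array at 6.02. Without it the difference was 0.35, against 0.29. Cct7 probe set 1415817_s_at stood at 10.20 in high replicate 2, and the nearest high array at 10.02.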

How the results depend on the processing

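Under the alternatives the count of CCT probe sets called stayed at 0 in every comparison except with array quality weights. That fit called 2 in high against medium mice (smallest limma adjusted p 0.0432) and 1 in high against inconsistent mice (0.0393), where it called 354 and 146 of all probe sets. Leaving out each array in turn gave counts from 0 to 0. Replicate numbers did not pair the samples, since same-numbered arrays of different groups correlated from -0.17 to 0.14 in their deviations, with 1 of 18 pairs over 0.1. With the replicate block the counts were 0, with smallest adjusted p-values by limma of 0.487 against low and 0.144 against medium mice. Tcp1 then differed by -0.0036 from low and Cct7 by -0.038 from medium mice. The number of subunit pairs that correlated, 2 of 28, was 28 without normalisation between arrays, 28 with arrays centred on their medians, 0 and 13 within clusters 1 and 2, and 4 with group means removed. Within cluster 1, of 8 arrays, the r of Cct3 and Cct4 was -0.62.

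Of 34 differences between groups followed for single probe sets, over 1522 alternatives, 15 values changed sign, all of differences that did not pass. Against low mice Cct2 was at -0.041 within cluster 2 and -0.018 without choroid-bright arrays. Cct8 was at 0.0070 with medians centred and 0.11 within cluster 2, and Cct3 1426067_x_at at 0.13 within cluster 2. The differences followed for the fit without normalisation were those with medians centred. Its 0.0070 for Cct8 is therefore the same number, counted again among the 15. Signs without normalisation were thus not followed, and the 15 does not show how stable they were there. In that fit the median difference over all tested probe sets was -0.06 against low and -0.17 against medium mice. Against medium mice, Cct8 was at -0.0066 with the cluster as a block and -0.047 within cluster 3. Against inconsistent mice, Cct3 1426067_x_at was at 0.25 within cluster 2, which holds 1 high array. Leaving out each array gave -0.0041 to 0.047 for Cct2 against low, and -0.014 to 0.056 for Cct7 and -0.013 to 0.034 for Cct8 against medium mice. The cause was not tested.

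The 5 high mice limit what can be seen. The 95% intervals of the 8 genes reached from -0.14 to 0.23 against low and from -0.09 to 0.24 against medium mice, and 0 of these differences passed after adjustment.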

Other observations

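The 3 CCT probe sets left out of the tests were dim. Cct3 probe sets 1439679_at and 1451915_at averaged deposited intensities of 18.9 and 6.23, and Cct8 probe set 1436973_at averaged 3.59. In the 2 mice with incomplete behavioural data, the mean deviation of the 8 CCT genes was 0.0073 and 0.03, inside the range of the other groups.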
